A study of Rattus norvegicus with 62 samples.

Results

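The genes described here encode the voltage-gated sodium, calcium and potassium channels, the pacemaker channels and the other potassium channels of the rat heart, with their accessory subunits. They were taken as all probe sets whose platform annotation gives exactly 1 gene with a symbol starting with Kcn, Scn, Cacn or Hcn. This gave 187 of 31042 probe sets, for 118 genes, and 80 of these probe sets, for 61 genes, had a mean log2 signal of 5 or more and were tested among 18752 probe sets. The value that kept a probe set was its mean over all arrays, so the choice used no difference between groups. The last probe sets inside this limit were Kcnj12 at 5.01, Cacna2d3 at 5.04 and Kcnab3 at 5.04, and the first outside it were a Kcnq5 probe set at 4.91, Scn2b at 4.90 and a Kcnj5 probe set at 4.90. The prefix also takes in 2 subunits of the epithelial sodium channel (Scnn1b and Scnn1g) and the splicing factor Scnm1, which are not voltage-gated channels. Among genes of the main cardiac currents, Cacna1g, Kcne1 and Hcn4 had only probe sets below 5.

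Male Wistar rats were given rosiglitazone by mouth at 80 or 10 mg/kg/day, or vehicle, during 14 days, and cardiac muscle was taken 6, 24, 168 or 336 h after the last dose. Rosiglitazone is a glucose-lowering drug that activates the nuclear receptor PPAR gamma. From the earliest time to the last, the arrays numbered 5, 5, 6 and 5 at 80 mg/kg, 5, 5, 5 and 6 at 10 mg/kg and 4, 6, 5 and 5 of vehicle, with 1 Affymetrix array per sample. Ages and the cut of the heart wall beyond a sagittal one are not given in the sources used here, and nothing in the labels says that each sample came from its own animal, so the p-values speak only to the scatter among these samples, which may be technical. In whole tissue, fewer cells of a type and less RNA per cell cannot be told apart. Levels are given on the log2 scale once the arrays had been quantile normalized, a difference is that of 2 group means on this scale, and a probe set was called at a limma p-value of under 0.05 after Benjamini-Hochberg adjustment over all tested probe sets.

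Each heartbeat depends on these channels in turn. Sodium channels start the action potential, L-type calcium channels keep it going and trigger contraction, and potassium channels end it. In rat ventricle the fast transient outward current of Kcnd2, Kcnd3 and their partner Kcnip2 carries much of the repolarization, while inward rectifiers of the Kcnj family hold the resting potential, and Kcnj11 forms a channel that opens when ATP runs low. K2P channels of the Kcnk family pass a steady background current. Kcng and Kcns subunits are called silent because they form no channel alone but alter the channels they join.

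The arrays differed in ways that touch several results below. The median deposited signal of an array lay between 31.1 and 86.9, so the arrays did not share a scale. Myl7, a light chain of atrial muscle, lay at 9.32 or more in 10 arrays and at 8.71 or less in the other 52. These 10 were 2 of 5 at 80 mg/kg, 4 of 5 at 10 mg/kg and 1 of 4 of vehicle at 6 h, and a further 3 of 5 at 24 h in the 80 mg/kg group, while 168 and 336 h had 0. By their first 2 principal components, which held 14.2% and 8.81% of the variance, the arrays were split into 3 clusters with k-means. The number 3 was set and not found from the data. The components were computed from the same 18752 tested probe sets, the channel probe sets included. A fit with the cluster as a block can therefore also take out a true difference between times, and cannot tell time from cluster. The clusters were numbered by the median 3' to 5' difference of their hexokinase control probes, lowest first. The hexokinase control probes differed between the 3' and 5' end by 2.09 to 6.08 in the 20 arrays of cluster 3, by 1.42 to 2.45 in the 21 of cluster 2 and by 1.38 to 1.97 in the 21 of cluster 1. Clusters 1, 2 and 3 held 7, 8 and 6 arrays of 80 mg/kg, 7, 7 and 7 of 10 mg/kg and 7, 6 and 7 of vehicle, but all 16 arrays of 336 h were in cluster 2 against 2 of 16 at 168 h. The ventricular marker list (5 of 5 genes kept) had summed log2 levels of 54.2 to 58.2 in every array, so ventricular muscle was present throughout.

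No ion channel gene was called for either dose of rosiglitazone. Averaged over the 4 times, 0 of 80 probe sets passed for 80 mg/kg against vehicle, where 0.475% of all tested probe sets (89 of 18752) did, and 5 channel probe sets (6.25%) had an unadjusted p under 0.05, against 9.51% of all. For 10 mg/kg against vehicle 0 of 80 passed, against 0.0107% of all, with 4 (5%, against 4.78% of all) under 0.05 unadjusted. For 80 against 10 mg/kg 0 of 80 passed, against 0.187% of all, with 10 (12.5%, against 5.98% of all) under 0.05 unadjusted. The median difference of the 80 probe sets was 0.04 for 80 mg/kg against vehicle, 0.04 for 10 mg/kg against vehicle and −0.01 for 80 against 10 mg/kg, where all tested probe sets had medians of −0.00, −0.01 and 0.00. The same 80 mg/kg arrays did show a called increase of Fabp4, a fatty acid binding protein of fat cells and capillary endothelium and a known PPAR gamma target, by 0.93 ± 0.0684 over vehicle (SE, adjusted p = 3.9e-15).

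The absence of calls was accompanied by fairly narrow intervals once the times were averaged. For 80 mg/kg against vehicle the 95% interval lay within a 2-fold change in either direction for 78 of 80 probe sets, and within 1.41-fold for 58. For 10 mg/kg against vehicle these numbers were 79 and 59. At single times, with 4 to 6 arrays a group, between 51 and 66 of 80 intervals lay within 2-fold, depending on the comparison. The plot of the differences by gene shows the 61 genes by role, each at its brightest probe set.

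**Figure D1:**
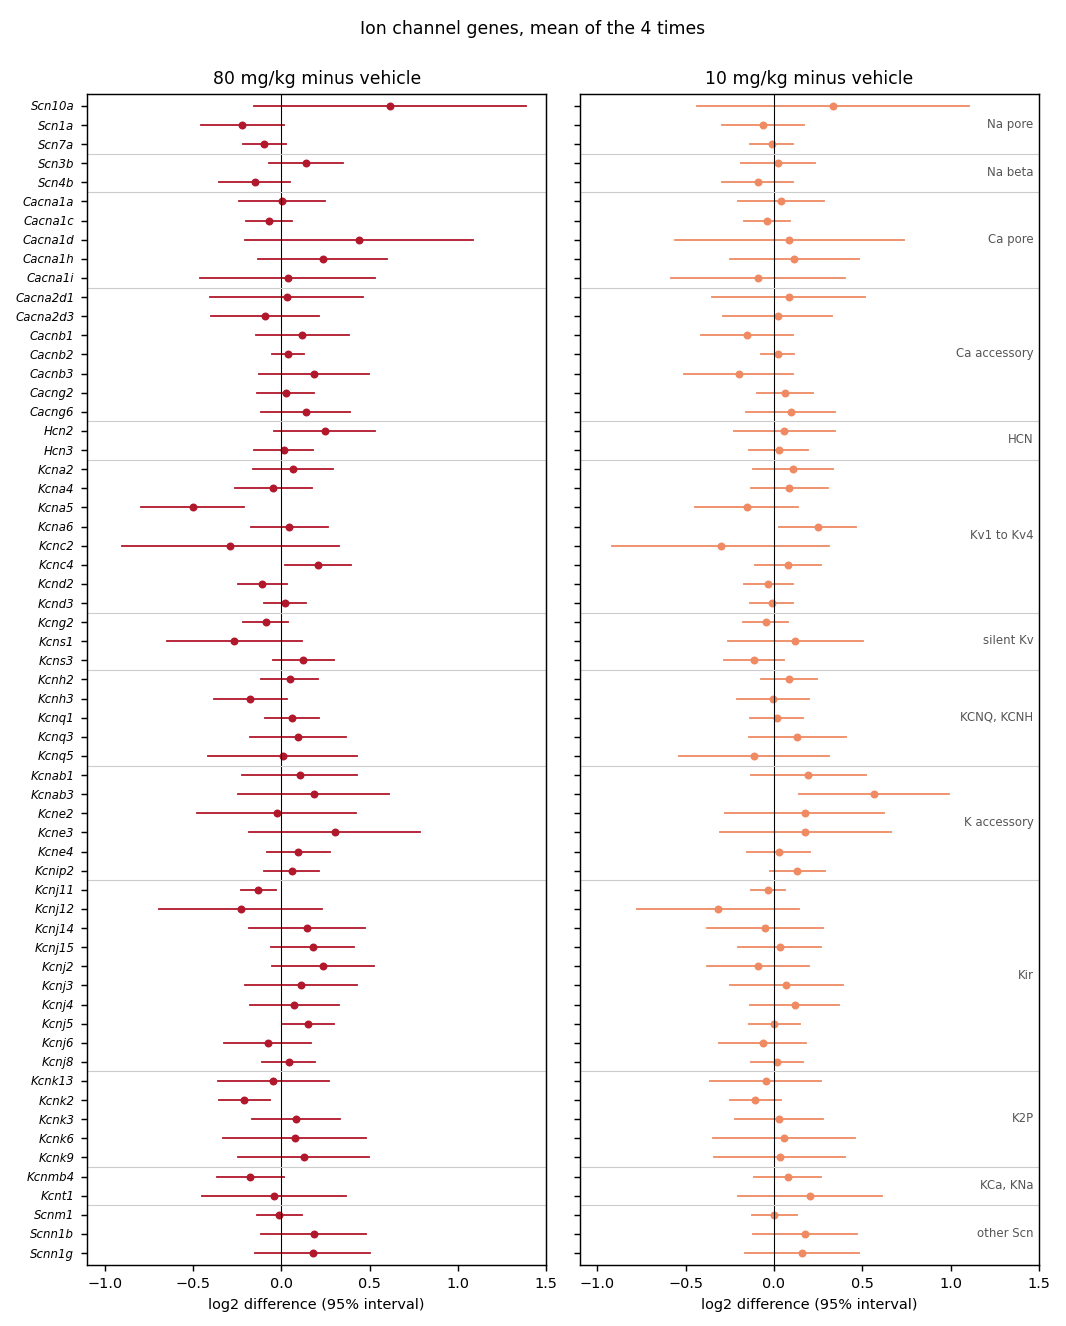
Log2 difference from vehicle, averaged over the 4 times, for 80 mg/kg (left) and 10 mg/kg (right); each point is 1 gene at its brightest probe set and the line its 95% interval, grouped by role from sodium channels at the top to other genes with the prefix Scn at the bottom. Kcna5 at 80 mg/kg, at −0.50, lies farthest from 0 relative to its interval; 0 of 61 points passed the adjusted test.

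The smallest p-value of a channel gene in the comparison of 80 mg/kg with vehicle belonged to Kcna5, which encodes the pore of a rapidly activating delayed rectifier, known in human heart as an atrial current. At 6 h Kcna5 had log2 signals of 7.02, 7.26, 7.03, 6.87 and 7.12 at 80 mg/kg, 6.83, 7.01, 7.14, 6.83 and 7.37 at 10 mg/kg, and 7.42, 7.82, 7.05 and 8.11 in vehicle. At 24 h it had 6.27, 6.22, 6.41, 6.46 and 5.82 at 80 mg/kg, 7.65, 7.07, 7.59, 6.53 and 6.41 at 10 mg/kg, and from 6.38 to 7.68 (median 6.82, n = 6) in vehicle. At both of these times the 80 mg/kg arrays were the more uniform group, and each lay below the vehicle mean, although the ranges overlapped. At 168 h Kcna5 ran from 5.71 to 6.99 (median 6.00, n = 6) at 80 mg/kg, and was 6.46, 6.80, 7.24, 6.51 and 5.92 at 10 mg/kg and 7.00, 6.70, 6.23, 6.32 and 6.21 in vehicle. At 336 h it was 5.28, 6.21, 7.67, 6.09 and 5.88 at 80 mg/kg, ran from 6.15 to 6.70 (median 6.40, n = 6) at 10 mg/kg, and was 7.43, 6.49, 6.14, 7.19 and 6.14 in vehicle. Replicate 3 of 80 mg/kg at 336 h, at 7.67, was higher than every other 80 mg/kg array of any time.

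The Kcna5 differences of 80 mg/kg from vehicle were −0.54, −0.69, −0.33 and −0.45 at 6, 24, 168 and 336 h, with 95% intervals that included 0 at 3 of the 4 times (−1.25 to −0.12 at 24 h). Averaged over the times, the level was 6.42 at 80 mg/kg and 6.92 in vehicle, a difference of −0.50 ± 0.146 (SE), or 0.706-fold with a 95% interval of 0.576 to 0.865, and 18 of 21 arrays at 80 mg/kg lay below the vehicle mean of their own time. This did not pass (limma adjusted p = 0.120). In the 41 fits that left out 1 array at a time the adjusted p lay between 0.0120 and 0.205, and the low end was the fit without replicate 3 of 80 mg/kg at 336 h, where the difference was −0.59 and Kcna5 was the 1 channel gene called. Kcna5 at 10 mg/kg differed from vehicle by −0.16 (95% interval −0.45 to 0.14), and 80 from 10 mg/kg by −0.35 (−0.64 to −0.06, adjusted p = 0.672). Without the arrays with high Myl7 the difference of 80 mg/kg from vehicle was −0.53, and −0.49 when array cluster was a block.

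Kcnk2, a K2P background channel that opens on stretch, came next, with all 6 arrays of 80 mg/kg at 168 h below all 5 of vehicle. There it read 7.69, 7.36, 7.39, 7.18, 7.64 and 7.42 at 80 mg/kg and 7.71, 7.90, 7.91, 7.91 and 7.78 in vehicle, a difference of −0.40 ± 0.139 (adjusted p = 0.603). At the other times it was 0.02 (6 h), −0.11 (24 h) and −0.34 (336 h). Averaged, the difference was −0.21 (95% interval −0.35 to −0.06, adjusted p = 0.237), with 15 of 21 arrays of 80 mg/kg below the vehicle mean of their own time. Kcnk2 was also the gene with the smallest p among the negative differences of 10 mg/kg, at −0.11 (−0.25 to 0.04). Because both comparisons use the same vehicle arrays, the shared sign is not independent.

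The other genes with the smallest p-values at 80 mg/kg were of mixed kinds. Kcnj11, the pore of the ATP-sensitive channel, differed by −0.13 (95% interval −0.23 to −0.03) at its brightest probe set, but by 0.08 at each of its other 2 probe sets, so its 3 probe sets did not share a sign. Kcnc4, a high-voltage-activated Kv pore, differed by 0.21 (0.02 to 0.40) at the brighter and by −0.14 at the dimmer of its 2 probe sets. Kcnj5, a subunit of the acetylcholine-activated atrial channel, differed by 0.15 (0.01 to 0.30). Hcn2, a pacemaker channel pore, differed by 0.25 (−0.04 to 0.53). Their adjusted p-values lay between 0.314 (Kcnj11) and 0.619 (Hcn2).

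**Figure D2:**
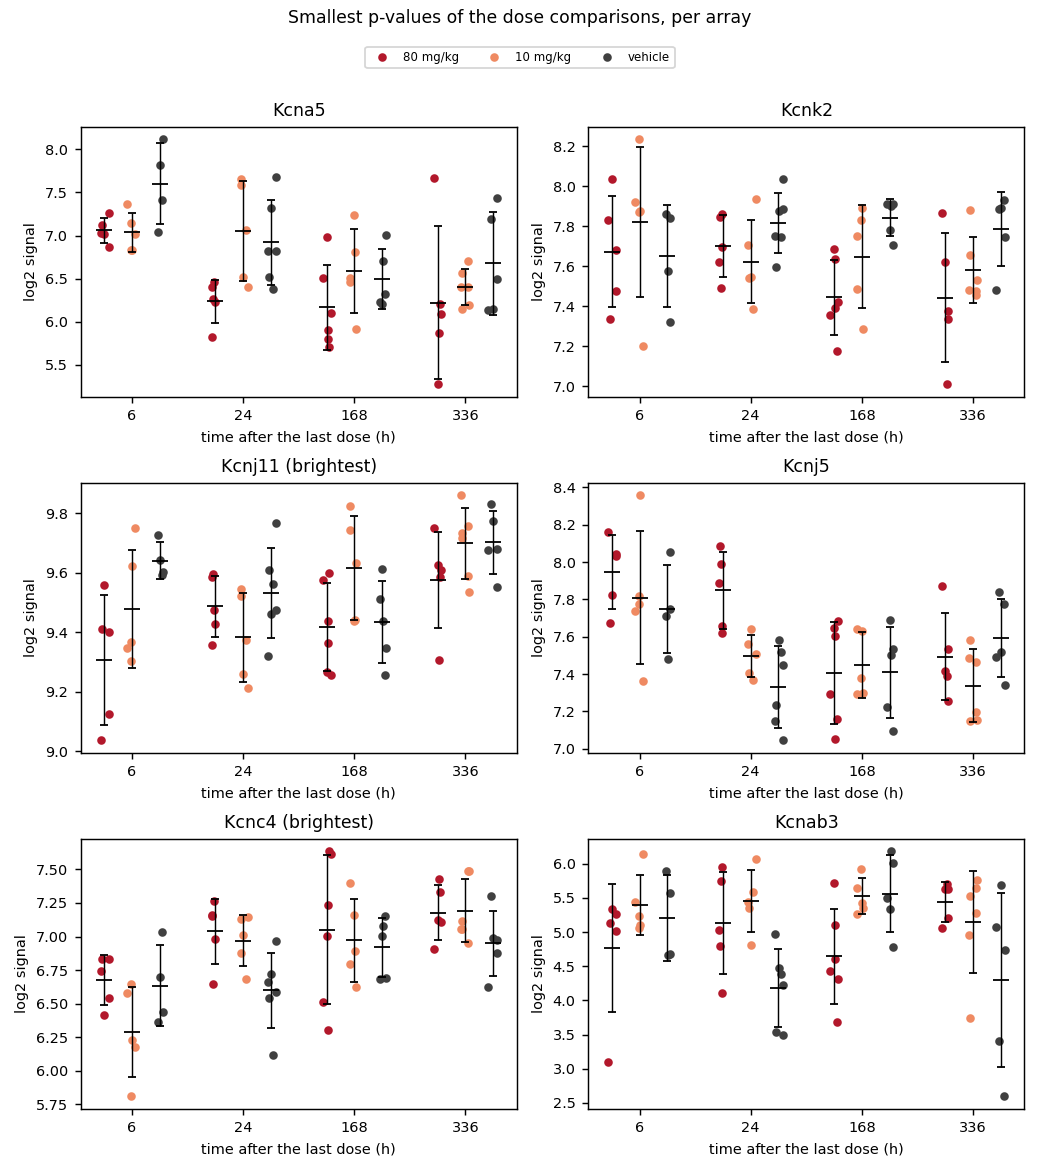
Log2 signal of 6 genes in each of the 62 arrays against time after the last dose, with 80 mg/kg, 10 mg/kg and vehicle side by side at each time; points are arrays and bars the mean with SD. Kcna5 at 80 mg/kg lies below the vehicle mean of the same time in 18 of 21 arrays, and Kcnj5 at 80 mg/kg lies above every vehicle array at 24 h, the time of its smallest p-value.

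For 10 mg/kg against vehicle the smallest p-value was that of Kcnab3, a cytoplasmic beta subunit of Kv channels, with a difference of 0.57 (95% interval 0.14 to 0.99, adjusted p = 0.957) and 15 of 21 arrays above the vehicle mean of their own time. Kcna6, a Kv pore, differed by 0.25 (0.03 to 0.47), and Kcnip2, the calcium-binding partner of the transient outward channels, by 0.13 (−0.02 to 0.29). On the negative side stood Kcnk2, the inward rectifier Kcnj12 at −0.32 (−0.78 to 0.14) and the silent subunit Kcns3 at −0.11 (−0.29 to 0.06). Kcnab3 lies just above the signal limit and ranged from 3.74 to 6.14 over the 21 arrays at 10 mg/kg, against 2.60 to 6.18 over the 20 of vehicle.

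Between the doses, 80 mg/kg gave higher values than 10 mg/kg for Kcns3, at 0.24 (95% interval 0.07 to 0.41, adjusted p = 0.540), for Cacnb3, a beta subunit of calcium channels, at 0.38 (0.08 to 0.69), and for Kcnj2, an inward rectifier of the resting potential, at 0.33 (0.05 to 0.61). It gave lower values for Kcnmb4, a beta subunit of the calcium-activated BK channel, at −0.25 (−0.44 to −0.07, adjusted p = 0.544), for Kcna5, and for the silent subunit Kcns1 at −0.39 (−0.76 to −0.01). None of these passed. Kcns3 at 80 mg/kg ranged from 6.26 to 6.99 (median 6.63), at 10 mg/kg from 5.67 to 6.86 (median 6.46) and in vehicle from 5.82 to 7.08 (median 6.48), so the ranges overlapped widely.

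At single times, too, 0 of 80 probe sets passed in each of the 12 dose comparisons. For 80 mg/kg against vehicle the share of all tested probe sets called was 0.0533% at 6 h, 0.133% at 24 h, 0.0533% at 168 h and 0.283% at 336 h. For 80 against 10 mg/kg it was 0%, 0.0107%, 0.0373% and 0.101% in the same order, and at 10 mg/kg no time differed from vehicle at any probe set (0%). Between 2 and 7 channel probe sets (2.5% to 8.75%) had an unadjusted p under 0.05 in each, where 3.58% to 11.0% of all probe sets had. The smallest adjusted p of the 12 comparisons was that of Kcnj5 at 24 h. It read 7.99, 7.66, 7.89, 7.62 and 8.09 at 80 mg/kg, 7.56, 7.37, 7.40, 7.64 and 7.51 at 10 mg/kg, and 7.05, 7.52, 7.58, 7.24, 7.15 and 7.45 in vehicle. Every 80 mg/kg array lay above every vehicle array, with a difference of 0.52 ± 0.138 (SE, limma adjusted p = 0.122). The 80 mg/kg arrays at 24 h with high Myl7 were replicates 2, 4 and 5, at 7.99, 7.89 and 7.62, and the others read 7.66 and 8.09. The vehicle arrays at 24 h with a high actin 3' to 5' difference were replicates 1 and 4, at 7.05 and 7.24. The difference was 0.54 without all arrays with high Myl7 (adjusted p = 0.273) and 0.38 when the Myl7 level was a covariate (adjusted p = 0.404).

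Kcnj11 at 6 h (its brightest probe set) read 9.56, 9.13, 9.04, 9.40 and 9.41 at 80 mg/kg and 9.59, 9.64, 9.73 and 9.60 in vehicle, with no overlap and a difference of −0.33 ± 0.104 (adjusted p = 0.389). On the deposited scale, where all probe sets shifted by a median of 0.37, it was 0.06. Averaged over the times, the other Kcnj11 probe sets had the opposite sign, as given above. How many of all tested probe sets have no overlap between groups this small was not counted. Kcns3 at 336 h read 6.73, 6.45, 6.46, 6.71 and 6.56 at 80 mg/kg and 5.82, 6.20, 6.48, 5.86 and 5.98 in vehicle, a difference of 0.51 ± 0.172 (adjusted p = 0.332), with overlap at 1 vehicle array. With array weights in the fit, which give less weight to noisy arrays, Kcns3 at 336 h was called (difference 0.51, adjusted p = 0.0483). Kcnd3, a pore of the transient outward current, had the widest difference of any channel probe set at 336 h, −1.61 ± 0.519 at the second brightest of its 3 probe sets (adjusted p = 0.302, outside the naming rule). It read 3.83, 7.07, 4.01, 6.14 and 5.91 at 80 mg/kg and 7.12, 6.27, 7.02, 7.39 and 7.23 in vehicle, so that 2 of 5 arrays lay far below the rest, and its brightest probe set differed by −0.00 at that time.

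At 10 mg/kg the smallest p-values of single times, each gene at its brightest probe set, were those of Cacng6, a gamma subunit of calcium channels, at 6 h (0.64), Kcnab3 at 24 h (1.27), the K2P gene Kcnk13 at 168 h (0.81) and the transient outward gene Kcna4 at 336 h (0.52), with adjusted p-values from 0.688 to 0.9997. Kcnab3 at 24 h read 5.44, 5.59, 5.36, 4.81 and 6.07 at 10 mg/kg and 3.50, 4.39, 4.47, 3.54, 4.98 and 4.22 in vehicle. Between the doses they were those of Kcns3 at 6 h (0.38), Kcna5 at 24 h (−0.81), Kcna2, a Kv pore, at 168 h (0.52) and Kcnmb4 at 336 h (−0.46), with adjusted p-values from 0.961 to 0.9998. Tests of whether the effect of a dose differed between the 4 times called 0 of 80 probe sets at 80 mg/kg (0.0213% of all) and 0 of 80 at 10 mg/kg (0% of all), with 5 (6.25%, against 7.28% of all) and 2 (2.5%, against 4.71%) under 0.05 unadjusted. Their smallest p-values were those of Kcnab3 (adjusted p = 0.346), whose 80 mg/kg differences from vehicle were −0.44, 0.95, −0.92 and 1.15 in the order of the times, and Kcnk13 (adjusted p = 0.984) at 10 mg/kg.

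Described by role, averaged over the times, the sodium channel genes held no called member. Scn7a, a sodium-sensing relative of the voltage-gated channels, differed by −0.10 (80 mg/kg) and −0.01 (10 mg/kg) from vehicle, and the neuronal pores Scn1a by −0.22 and −0.06 and Scn10a by 0.62 (95% interval −0.15 to 1.39) and 0.33. The beta subunit Scn4b, which modulates the cardiac sodium current, differed by −0.15 (−0.35 to 0.05) and −0.09 (−0.29 to 0.11). Of 7 calcium channel pore probe sets 5 were above 0 at 80 mg/kg. Cacna1c, the L-type pore of working muscle, differed by −0.07 (−0.20 to 0.06) and −0.04 (−0.17 to 0.09) at its brighter probe set, with intervals that lie within a 1.41-fold change. The L-type pore Cacna1d differed by 0.44 (−0.21 to 1.09) and 0.09, and the T-type pore Cacna1h by 0.23 (−0.13 to 0.60) and 0.12. Among the calcium channel accessory subunits, Cacnb2, the main beta subunit of the cardiac L-type channel, differed by 0.04 (−0.06 to 0.13) and 0.02, and Cacna2d1, its alpha-2-delta subunit, by 0.03 (−0.40 to 0.46) and 0.08.

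Of the genes of repolarization, Kcna5 is described above. Kcnd2 differed by −0.11 (95% interval −0.25 to 0.03) at 80 mg/kg and −0.03 at 10 mg/kg, Kcnd3 by 0.02 (−0.10 to 0.14) and −0.01 at its brightest probe set, and Kcnip2 by 0.06 (−0.10 to 0.21) and 0.13. Kcna4, which carries the slow part of the transient outward current, differed by −0.05 (−0.26 to 0.17) and 0.09. Kcnq1, the pore of the slow delayed rectifier, differed by 0.06 (−0.09 to 0.21) and 0.01, and Kcnh2, the pore of the rapid one, by 0.05 (−0.11 to 0.21) and 0.08. The 13 probe sets of Kv1 to Kv4 pores had a median of −0.11 at 80 mg/kg, with 8 below 0, and of 0.08 at 10 mg/kg, with 5 below 0.

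Among the 15 inward rectifier probe sets the median was 0.08 at 80 mg/kg (12 above 0) and 0.03 at 10 mg/kg (10 above 0). Kcnj2 differed by 0.24 (95% interval −0.05 to 0.53) and −0.09, and Kcnj12, its partner in the classical inward rectifier, by −0.23 (−0.69 to 0.23) and −0.32. Kcnj3, which joins Kcnj5 in the acetylcholine-activated channel, differed by 0.11 (−0.21 to 0.43) and 0.07. Kcnj8, the ATP-sensitive pore of vascular muscle, differed by 0.04 (−0.11 to 0.19) and 0.02. Of the K2P genes, Kcnk3, an acid-sensitive background channel, differed by 0.08 (−0.17 to 0.33) and 0.03, and the pacemaker gene Hcn3 by 0.01 (−0.15 to 0.18) and 0.03.

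The 3 promoters below belong to genes among the smallest p-values at 80 mg/kg and are shown because the drug's receptor binds DNA with its partner RXR at paired copies of AGGTCA. They are the 250 bases before the annotated start in RefSeq (GRCr8), read along the gene's strand, with a match to AGGTCA or its reverse complement in capitals. Kcna5 (chr4:161043810-161044059, minus strand) had no match, Kcnc4 (chr2:197788434-197788683, minus strand) had 1 on the gene's strand and Hcn2 (chr7:10639458-10639707, minus strand) had 1 on the opposite strand.
Kcna5: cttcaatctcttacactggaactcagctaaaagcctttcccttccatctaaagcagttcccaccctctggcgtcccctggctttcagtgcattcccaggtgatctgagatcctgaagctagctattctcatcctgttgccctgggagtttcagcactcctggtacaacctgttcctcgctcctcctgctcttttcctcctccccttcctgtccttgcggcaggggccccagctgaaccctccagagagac
Kcnc4: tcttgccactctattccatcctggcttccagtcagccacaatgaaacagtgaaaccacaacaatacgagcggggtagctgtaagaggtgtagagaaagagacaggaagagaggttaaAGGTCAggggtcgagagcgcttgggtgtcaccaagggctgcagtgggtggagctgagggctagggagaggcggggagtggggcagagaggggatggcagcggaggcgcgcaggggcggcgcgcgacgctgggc
Hcn2: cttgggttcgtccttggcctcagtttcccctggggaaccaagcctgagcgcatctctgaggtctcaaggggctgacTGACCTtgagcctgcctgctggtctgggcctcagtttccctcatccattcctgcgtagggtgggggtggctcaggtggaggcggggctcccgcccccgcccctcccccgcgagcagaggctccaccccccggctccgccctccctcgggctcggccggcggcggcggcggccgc
Kcnk2, Kcnj11 and Kcnj5, also among the smallest p-values at 80 mg/kg, are not shown. Each had no AGGTCA match or no promoter entry. In all, 81 of 118 genes matched the promoter table, with 90 promoters. The paired site AGGTCANAGGTCA, in either strand, occurred in 0 of these 90 and in 0.0508% of the 33469 promoters of the table. The single AGGTCA occurred in 9 of 90 (10.0%) against 14.1% of all, and the clock-factor motif CACGTG in 2 of 90 (2.22%) against 5.59%. These are matches of letters within this window and describe no binding.

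Between 24 and 6 h, averaged over the doses, 1 of 80 probe sets was called, against 0.848% of all, and 13 (16.2%, against 10.0% of all) had an unadjusted p under 0.05. The called one was Cacnb2 at its brightest probe set, which fell by 0.21 at 24 h (SE 0.0529, adjusted p = 0.0304). Its values ran from 8.66 to 9.10 (median 8.88, n = 16) at 24 h and from 8.83 to 9.31 (median 9.12, n = 14) at 6 h, and 15 of 16 arrays at 24 h lay below the 6 h mean. The other 2 Cacnb2 probe sets gave −0.22 and −0.39 without a call. The call was absent without the arrays with high Myl7 (difference −0.23, adjusted p = 0.321), without the 3 arrays of high actin 3' to 5' difference (−0.21, adjusted p = 0.0593), in 5 of 30 fits that left out 1 array, and within array clusters 1 (−0.22) and 3 (−0.12).

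The next genes in this comparison did not pass. They were Kcng2, a silent subunit expressed in heart, at 0.28 (adjusted p = 0.0525), Kcnj5 at −0.28 (adjusted p = 0.117), Kcna5 at −0.50 (adjusted p = 0.208), Kcnc4 at 0.34 (adjusted p = 0.154) and Kcne2, a beta subunit of delayed rectifiers, at 0.74 (adjusted p = 0.221). High Myl7 was found in 3 of 16 arrays at 24 h and 7 of 14 at 6 h. The summed log2 level of 5 atrial muscle markers (the sixth, Bmp10, was not kept) ran from 38.0 to 57.6 at 6 h, from 39.0 to 58.4 at 24 h, from 37.5 to 44.0 at 168 h and from 36.9 to 44.7 at 336 h. Kcnj5 had a median of 7.94 in the 10 arrays with high Myl7 and 7.50 in the other 52, Kcna5 6.93 and 6.51, and Scn4b 9.12 and 9.58. The part of atrial tissue in these time differences was not tested.

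**Figure D3:**
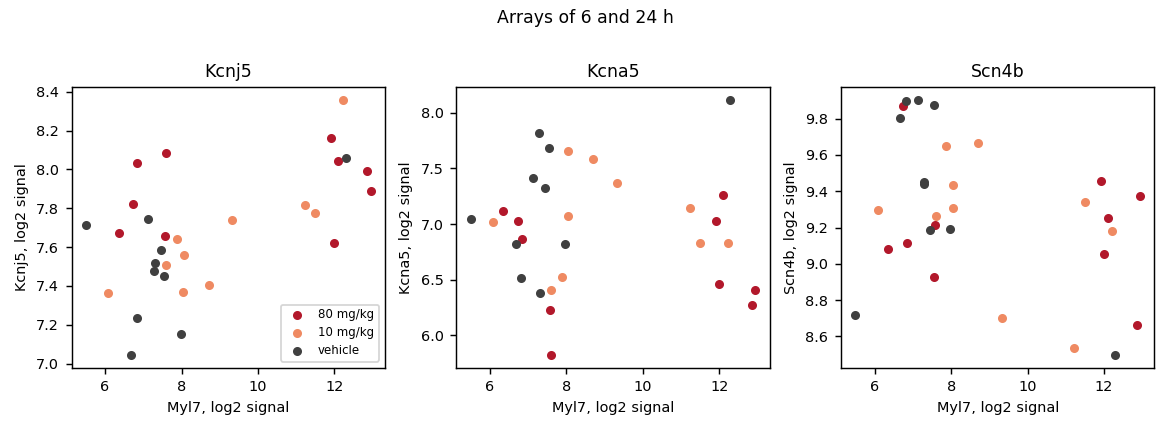
Log2 signal of Kcnj5, Kcna5 and Scn4b against that of the atrial marker Myl7 in the 30 arrays of 6 and 24 h, coloured by dose. The arrays fall into a group with Myl7 up to 8.71 and one from 9.32, and Kcnj5 lies between 7.62 and 8.36 in the arrays with high Myl7.

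Between 336 and 168 h, averaged over the doses, 16 of 80 probe sets for 12 genes were called, 14 higher and 2 lower, a share of 20% against 26.6% of all tested probe sets. The channels were thus called no more often than the array as a whole. Higher at 336 h were Kcnk3, Kcnj11, Kcng2, Kcnh2, Hcn2, Kcna2, Cacng6, Scn4b, Kcnj14 (an inward rectifier) and Kcnq5 (a slowly activating Kv pore, at the dimmer of its 2 kept probe sets), and lower were Kcnd3 and Kcnj3. None of the 10 sodium or calcium pore probe sets was called. Of all tested probe sets 12.7% were called higher and 13.9% lower.

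Kcnk3 had the largest difference of the called genes. At its brighter probe set it ran from 8.83 to 9.42 (median 9.16, n = 16) at 336 h and from 7.52 to 9.22 (median 8.33, n = 16) at 168 h, with overlap and a difference of 0.79 ± 0.140 (SE, adjusted p = 3.0e-05). At the dimmer one it ran from 6.71 to 7.70 (median 7.13) at 336 h and from 3.36 to 7.00 (median 5.82) at 168 h, a difference of 1.42 ± 0.274. All 3 Kcnj11 probe sets were called, with differences of 0.17 at the brightest, 0.39 at the second and 0.34 at the third. Both Kcng2 probe sets were called, at 0.34 (brighter) and 0.54 (dimmer). These 3 genes thus had all their kept probe sets called in 1 direction.

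Kcnh2 ran from 7.31 to 7.94 (median 7.54) at 336 h and from 6.77 to 7.48 (median 7.12) at 168 h, a difference of 0.43 ± 0.0899 (adjusted p = 0.00026), and all 16 arrays of 336 h lay above the 168 h mean. Hcn2 ran from 8.06 to 9.44 (median 9.03) at 336 h and from 7.45 to 8.89 (median 8.29) at 168 h, a difference of 0.65 ± 0.161 (adjusted p = 0.0017). Scn4b differed by 0.35, Kcna2 by 0.45, Cacng6 by 0.45, Kcnj14 by 0.52 and Kcnq5 by 0.43, with adjusted p-values from 0.0060 to 0.0475. The dimmer of the 2 Kcna2 probe sets went the other way, by −0.32 (95% interval −0.63 to −0.02) without a call, and the brighter Kcnq5 probe set differed by 0.05. Kcnd3 at its brightest probe set fell by 0.26 at 336 h (adjusted p = 0.0028), and its other 2 probe sets gave 0.01 and −0.40 without a call. Kcnj3 at its brightest probe set fell by 0.46 (adjusted p = 0.0494), with values from 6.18 to 7.38 (median 7.09) at 336 h and from 6.93 to 7.92 (median 7.49) at 168 h, and its other 2 probe sets gave −0.11 and 0.11 without a call. Leaving out 1 array ended the call of Kcnj3 in 25 of 32 fits, of Kcnq5 in 20, of the dimmest Kcnj11 probe set in 19, of Kcnj14 in 5 and of Scn4b in 1.

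**Figure D4:**
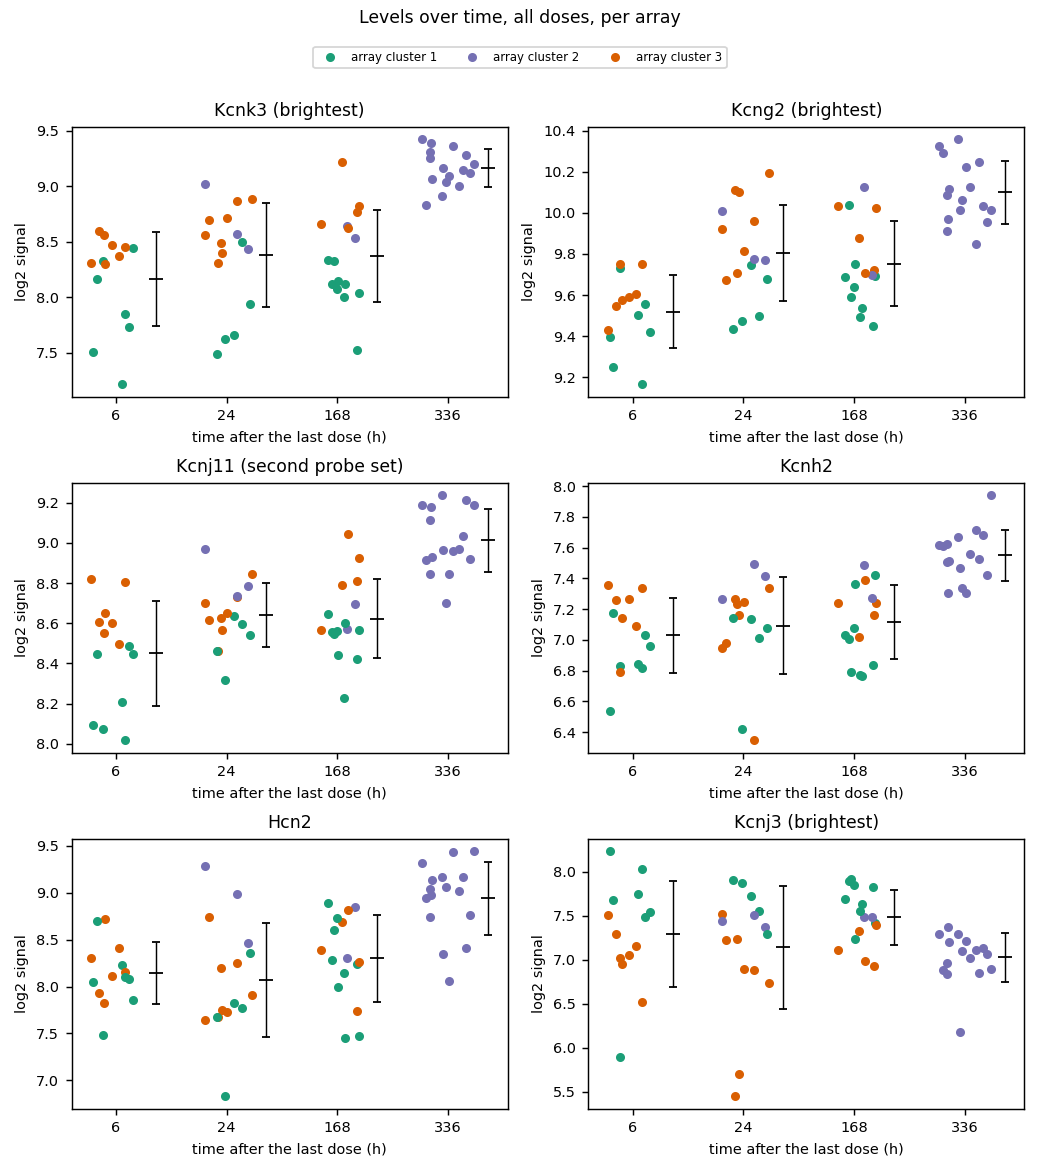
Log2 signal of 6 genes in each array against time after the last dose, all doses together, coloured by array cluster, with the mean and SD beside the points. All 16 arrays of 336 h belong to cluster 2, and within 168 h the Kcnk3 values of cluster 3 (8.62 to 9.22) lie above those of cluster 1 (7.52 to 8.34).

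The array clusters moved with this comparison and also with the level of these genes inside a time. At 168 h Kcnk3 (brighter probe set) ran from 8.62 to 9.22 in the 5 arrays of cluster 3, from 8.54 to 8.64 in the 2 of cluster 2 and from 7.52 to 8.34 in the 9 of cluster 1. Kcnj3 (brightest) ran the other way there, from 6.93 to 7.40 in cluster 3, at 7.49 in both arrays of cluster 2 and from 7.24 to 7.92 in cluster 1. The clusters were made from the tested values themselves. With the cluster as a block 0 of the 16 probe sets passed. Of all 18752 tested probe sets 5 did, against 4997 without the block. A fit within cluster 2 was also made. At 168 h cluster 2 held 1 array of 80 mg/kg, 0 of 10 mg/kg and 1 of vehicle, so this fit leaves out 10 mg/kg and assumes that each lone array varies like the 5 of its dose at 336 h. The difference of Kcnk3 (brighter) was 0.39 with the block and 0.58 within cluster 2, that of Hcn2 −0.08 and 0.30, and that of Kcnj3 −0.51 and −0.50. Since 16 of 16 arrays of 336 h lay in 1 cluster, time and array cluster can hardly be told apart here. On the deposited scale, where the median of all probe sets was 0.45 higher at 336 h, 55 channel probe sets were called higher and 0 lower. In that fit 12661 of all 18752 tested probe sets were called.

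**Figure D5:**
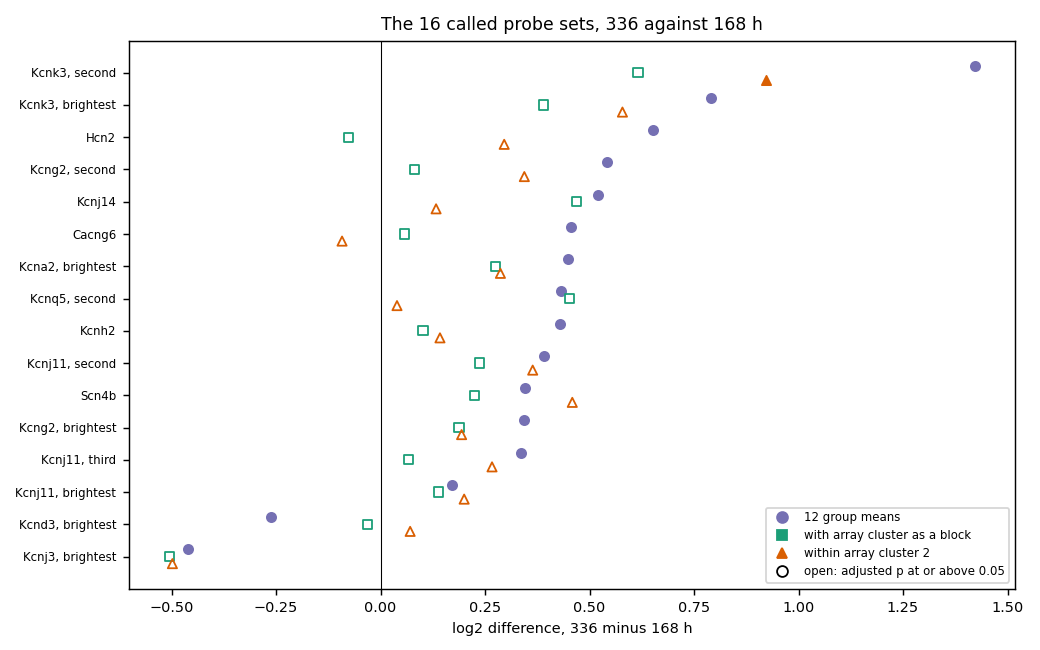
Log2 difference of 336 minus 168 h for the 16 called probe sets in 3 fits, with the probe sets from the largest to the smallest difference and open symbols where the adjusted p was 0.05 or more. All 16 are filled in the fit of 12 group means and 0 where the array cluster was a block, a fit that called 5 of all 18752 tested probe sets. The fit within cluster 2 rests on 1 array of 80 mg/kg and 1 of vehicle at 168 h.

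In vehicle hearts alone 11 of 80 probe sets for 9 genes differed over the 4 times by a moderated F test (13.8%, against 7.97% of all), namely both of Kcng2, 2 of Kcnj11, and Kcnh2, Kcnk3, Kcnj15, Cacng6, Kcns3, Kcnab3 and Kcna4. Kcng2 at its dimmer probe set averaged 8.12 ± 0.24, 8.52 ± 0.21, 8.24 ± 0.39 and 9.07 ± 0.24 (SD, n = 4, 6, 5 and 5) at 6, 24, 168 and 336 h, with the smallest adjusted p, 0.0037. Kcnj11 at its second probe set averaged 8.31 ± 0.28, 8.67 ± 0.10, 8.55 ± 0.07 and 8.97 ± 0.13, and Kcnh2 6.87 ± 0.26, 7.03 ± 0.36, 7.15 ± 0.33 and 7.55 ± 0.15. The silent subunit Kcns3 was lowest at 336 h (6.67, 6.66, 6.51 and 6.07), as was Kcna4 (6.23, 6.21, 6.00 and 5.48), while Kcnab3 was low at 24 and 336 h (5.21, 4.18, 5.56 and 4.30). When the array cluster was a block, 0 of 80 passed, and 53 of all 18752 tested probe sets did, against 1494 without the block. That fit cannot tell time from cluster at 336 h, where all 5 vehicle arrays were in cluster 2. The count of 11 was 4 without replicate 3 or without replicate 5 of 336 h, 5 without replicate 6 of 6 h or replicate 4 of 336 h, 7 without replicate 4 of 24 h and 6 without replicate 6 of 336 h.

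Of 71 measured genes in 5 lists of channel partners (accessory proteins, trafficking and modulators, transcription factors of electrical genes, gap junctions, and other cation and chloride channels and pumps), 0 were called in any of the 15 dose comparisons. In those comparisons 0% to 0.475% of all tested probe sets were called, so 0 of 71 is near that share. Each gene was taken at its brightest probe set. The shares beside the time comparisons and the vehicle test are those of all 10601 genes taken in the same way. Counts from fits blocked on array cluster stand beside counts of probe sets, not of genes. At 24 against 6 h, 2 (2.82%, against 1.08%) were called, both higher at 24 h, namely Rrad, a small GTPase that limits the L-type current (0.28, adjusted p = 0.0304), and Gja1, the main ventricular gap junction protein (0.17, adjusted p = 0.0341). Blocking on array cluster gave 5 there, in a fit that called 201 of all 18752 tested probe sets. At 336 against 168 h, 25 (35.2%, against 28.7%) were called, 10 higher and 15 lower. A fit that blocked on array cluster called 0 of them, and 5 of all 18752 tested probe sets. Both sulfonylurea receptors, which join Kcnj11 in the ATP-sensitive channel, were among them in opposite directions, Abcc8 higher by 0.40 and Abcc9 lower (−0.23). Also higher were the transcription factors Nkx2-5 (0.70), Gata4 (0.57) and Klf15 (0.43), the last a known regulator of Kcnip2 in mouse. Zfhx3 (−0.29) and Gata6 (−0.20), of the same transcription factor list, were lower. Also lower were the ankyrins Ank2 (−0.23) and Ank3 (−0.40), which anchor channels, and Slc8a1 (−0.27), the sodium-calcium exchanger. In vehicle over the 4 times 16 (22.5%, against 8.22%) were called, and 1 when blocked on array cluster, where 53 of all 18752 tested probe sets were.

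Markers of other cells were also set beside these results. In 80 mg/kg against vehicle averaged over the times, Fabp4 and the endothelial receptor Kdr (0.22 ± 0.0467, adjusted p = 0.0066) were called among the marker lists. Fabp4 was the only 1 of 5 listed adipocyte genes with a kept probe set. Of the lists for nerve fibres and Schwann cells, 2 of 7 and 2 of 5 genes were kept, with summed log2 levels per array of 10.9 to 13.2 and 9.05 to 12.1. At 24 against 6 h, Fabp4 was called lower (−0.36, adjusted p = 0.0101). At 336 against 168 h, 28.7% of all 10601 genes, each at its brightest probe set, were called. Among the markers, smooth muscle Acta2 was called higher (0.78), as were Col1a1 (0.45) of fibroblasts and Tie1 (0.38) of endothelium. Pdgfra (−0.29) of fibroblasts and ventricular Myl2 (−0.08) were called lower. The other kept markers were not called, where smooth muscle, fibroblasts and ventricular muscle had 5 kept genes each and endothelium 4. Time and array cluster can hardly be told apart there. In vehicle over the 4 times, Pdgfra (F test, adjusted p = 0.0118) and Acta1 (adjusted p = 0.0485) were called, where 8.22% of all genes were. Acta1 stood in the skeletal muscle list, of which 2 of 6 genes were kept, and was not shown to mark that tissue here. The part of these cells in the channel values was not tested.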

How the data were processed

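Each of 62 samples of rat cardiac muscle was measured on an Affymetrix rat array of its own. The deposited values are probe set signal intensities, made with GCOS and MAS5 per the submitters' processing notes, whose versions the sources used here do not state. Their scale and direction are those of linear MAS5 signals, from 0.016 to 21429.

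From these deposited intensities log2 values were computed, 57 control probe sets were left out and the arrays were quantile normalized. Probe sets with a mean log2 signal of 5 or more (18752) were fitted with limma 3.58.1 (R 4.3.3, with the data.table package at 1.17.8) as 12 group means with 50 residual degrees of freedom. This gave 20 comparisons, with Benjamini-Hochberg adjustment over all tested probe sets in each. Intervals are at 95% confidence, and the number of arrays limits the precision. The fit was tested on simulated data.

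Members, gene lists and tests were chosen with earlier results of these data known. Genes were named where they carry a main cardiac current, where they were called, or where they had the smallest p-values of a comparison (3 in each direction for comparisons averaged over times, 1 in others), each at its brightest probe set. Called partner genes were named as examples. All 187 probe sets have 1 gene in the platform annotation, which may be old, and matched RefSeq by gene ID. The alternatives were scaling, filter, array weights, replicate block, leaving out arrays, and, chosen after seeing the data, control probe covariates and fits within array clusters.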

Additional observations from a re-analysis of the deposited data

Results flagged for a closer look

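Of 252 tests of 1 array against the rest of its group, over 21 probe sets, 18 found an array far from the others by Dixon's test, where chance gives about 1 in 20. For Cacnb2 (brightest probe set) these were replicate 3 of 80 mg/kg at 336 h (8.54), replicate 6 of 10 mg/kg at 168 h (9.19), and replicate 4 of vehicle at 24 h (9.10) and 3 at 336 h (8.96). For Cacng6 they were replicate 6 of 80 mg/kg at 6 h (4.66) and 5 at 168 h (5.11), replicate 4 of 10 mg/kg at 6 h (6.40) and 5 at 336 h (6.51), and replicate 4 of vehicle at 336 h (6.56). Kcnj14 was low in replicate 2 of 80 mg/kg at 168 h (4.07) and replicate 1 of 10 mg/kg at 6 h (4.17). Kcns3 was low in replicates 6 at 24 h (5.93) and 4 at 336 h (5.87) of 10 mg/kg. Kcnab3 was low in replicate 4 of 80 mg/kg at 6 h (3.10), and Hcn2 high in replicate 3 of 10 mg/kg at 24 h (8.46). In vehicle, Kcnh2 was low in replicate 4 at 24 h (6.35), Kcnk3 (brighter probe set) in replicate 6 at 6 h (7.51) and Kcnj11 (second probe set) in replicate 4 at 168 h (8.42).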

How the results depend on the processing

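The counts of called channel probe sets stayed at 0 in the dose comparisons and interaction tests under the alternatives run, with 2 exceptions. Array weights gave 1 for 80 mg/kg against vehicle at 336 h (Kcns3), and leaving out 1 array gave 0 to 1 for 80 mg/kg against vehicle averaged over the times (Kcna5, without replicate 3 of 80 mg/kg at 336 h). For 24 against 6 h, where 1 was called, the count was 0 on the deposited scale, with median scaling, without a filter, without the arrays with high Myl7, with arrays of these times only and within clusters 1 and 3. It was 2 with a limit of 6, 2 with the replicate block and 3 with control probe covariates, and 0 to 3 when 1 array was left out (0 without replicates 4 or 6 of 80 mg/kg at 24 h, 3 of 10 mg/kg at 6 h or 6 of vehicle at 6 h, and 3 without replicate 1 of vehicle at 6 h). For 336 against 168 h, where 14 were higher and 2 lower, it was 55 on the deposited scale (55 higher and 0 lower, 14 of them among the 16) and 13 higher and 1 lower with median scaling. It was 0 with the cluster block and 12 to 18 when 1 array was left out. Of all 18752 tested probe sets, 12661 were called on the deposited scale and 5 with the cluster block. For vehicle over the 4 times, where 11 were called, the count was 0 on the deposited scale (10 of all 18752), 6 with median scaling and 6 without a filter. It was 4 without high Myl7, 6 without high actin, 0 with the cluster block (53 of all 18752), 4 with control covariates and 4 to 13 when 1 array was left out.

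Values for 336 against 168 h that changed sign were, on the deposited scale, Kcnj3 at 0.0070, Kcnd3 at 0.20, Cacna1c at 0.38, Cacnb2 at 0.41 and Kcnj2 at 0.40, where all probe sets shifted by 0.45. Within cluster 2 they were Cacng6 at −0.092 and Kcnd3 at 0.071, and with the cluster block Hcn2 at −0.077. The cause was not tested. Over 52 pairs of arrays with the same replicate number the median correlation of their deviations was 0.006 (−0.25 to 0.34), with 14 above 0.1. Over 268 pairs with different numbers it was −0.004 (−0.42 to 0.35), with 57 above 0.1. The numbers were not used as pairs in the main fit, and medians near 0 cannot exclude a batch shared by some of them.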
